A study of Mus musculus with 12 samples.

Results

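C-type lectin receptors are surface proteins of macrophages and dendritic cells that bind sugars and other ligands on microbes, dying cells and host proteins. The transcripts of 8 of them, Clec7a, Clec4d, Clec4e, Clec4n, Clec4a2, Clec12a, Clec10a and Mrc1, were followed in mouse peritoneal macrophages. They were chosen by symbol from a table of 35050 rows, and all 8 passed the filter on low counts that left 16546 genes for testing. The RNA-seq libraries numbered 12, with 3 in each of 4 groups. The KO R300 and KO blank groups came from Mac-Ern1KO mice, in which the gene of the endoplasmic reticulum stress sensor IRE1α is deleted in macrophages; the Cre driver is not named in the labels. The WT R300 and WT blank groups came from mice labelled Ern1fl/fl, which carry the floxed gene. All mice were labelled male and 8 weeks old, and cells of all 4 groups were collected 3 days after 3% Brewer thioglycollate was injected into the peritoneum. Macrophages of the R300 groups were then co-cultured for 2 h with platelets opsonised by R300, which binds CD42 on their surface. The blank groups have the treatment label Con, and whether they received uncoated platelets or none is not given in the labels.

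The receptors differ in how they signal. Dectin-1 (Clec7a) binds fungal β-glucan and recruits the kinase Syk through a motif in its own tail, whereas dectin-2 (Clec4n), mincle (Clec4e) and MCL (Clec4d) reach Syk through the adaptor FcRγ, which also serves the Fc receptors that take up antibody-coated particles. DCIR (Clec4a2) and MICL (Clec12a) carry inhibitory motifs that recruit phosphatases, and the galactose-type lectin MGL1 (Clec10a) and the mannose receptor CD206 (Mrc1) are endocytic receptors that are often used as markers of alternatively activated macrophages.

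Clec4a2, Clec4n, Clec4d and Clec4e lie within 183 kb of mouse chromosome 6 (GRCm38, 123106428 to 123289870). Clec12a and Clec7a lie within 130 kb of the same chromosome (129342691 to 129472779), 6.05 Mb further along. Clec10a is on chromosome 11 (70156197 to 70170834) and Mrc1 on chromosome 2 (14229392 to 14332057). In the GENCODE annotation, no exon base of any of the 8 overlaps another gene on either strand. Stretches of 50 bases shared with other genes made up 9.02% of those in Clec10a, mainly shared with its paralogue Mgl2, and 6.69% of those in Clec4a2, including Clec4b1 and Clec4a4, so these 2 counts are the less certain ones; the share was under 1% in each of the others.

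RefSeq's promoter table (GRCm38.p6) held entries for 6 of the 8, and the 250 bases before the start site are printed for 3. Clec7a is shown because its transcript rose with R300 platelets, and Clec4d and Clec12a because their levels ran in opposite directions across libraries. The windows are chr6:129472780-129473029 on the minus strand for Clec7a, chr6:123261857-123262106 on the plus strand for Clec4d and chr6:129349994-129350243 on the plus strand for Clec12a. Each is written 5′ to 3′, and capitals mark GAGGAA, a core bound by PU.1 and other ETS factors, or its reverse complement TTCCTC.
Clec7a: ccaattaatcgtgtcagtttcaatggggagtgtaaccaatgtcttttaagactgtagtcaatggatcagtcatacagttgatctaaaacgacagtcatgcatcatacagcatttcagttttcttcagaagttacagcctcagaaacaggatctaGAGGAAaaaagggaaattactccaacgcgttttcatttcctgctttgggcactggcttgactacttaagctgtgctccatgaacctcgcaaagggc
Clec4d: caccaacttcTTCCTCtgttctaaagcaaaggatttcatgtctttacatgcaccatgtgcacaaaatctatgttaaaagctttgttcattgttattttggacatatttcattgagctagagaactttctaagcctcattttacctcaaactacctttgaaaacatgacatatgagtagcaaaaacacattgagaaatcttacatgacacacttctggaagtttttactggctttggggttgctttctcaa
Clec12a: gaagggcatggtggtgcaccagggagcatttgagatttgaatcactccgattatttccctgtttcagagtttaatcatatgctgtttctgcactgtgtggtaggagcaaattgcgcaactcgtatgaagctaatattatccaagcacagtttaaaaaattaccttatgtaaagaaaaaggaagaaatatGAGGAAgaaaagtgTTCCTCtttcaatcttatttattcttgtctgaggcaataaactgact
The PU.1/ETS core was found on either strand in 5 of the 6 windows, those of Clec7a, Clec4d, Clec4e, Clec12a and Mrc1, and in 23.3% of all 32851 windows of that length. The AP-1 letters TGANTCA were found in Clec12a (6.75% of all windows) and the C/EBP letters TTGCNNAA in Clec12a and Clec4e (9.56%). None of the 6 held TGACG, the CRE half-site (17.8% of all windows). Nor did any hold the E-box CACGTG (6.02%) or the nuclear receptor half-site AGGTCA (14.0%). These matches are descriptions of the letters only.

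Totals ran from 21765586 to 44273655 counts per library, and the expression values below are CPM, counts scaled to the TMM-normalised library size. The 12 macrophage markers, Lyz2 among them, summed to 12263 to 16042 CPM in the KO libraries, against 18632 to 20720 CPM in the WT libraries. Lyz2 alone stood at 6058 to 7317 CPM in the KO libraries, against 12183 to 13522 CPM in the WT libraries. Of the 12 markers, KO minus WT, 6 were positive and 6 negative with R300 (median log2 0.04). In blank 3 were positive and 9 negative (median log2 -0.08). Ern1 itself stood at 235, 225 and 174 CPM in the KO R300 libraries, against 204, 138 and 205 CPM in those of WT R300. Under the blank condition it stood at 150, 155 and 116 CPM in the KO libraries, against 113, 117 and 94.1 CPM in the WT ones. Counts over the whole gene do not show whether the floxed exon is present. Although all mice were labelled male, Xist, the RNA of the inactive X chromosome, was at 143 CPM or more in 8 libraries. It was at 0.0742 CPM or less in the other 4, which are KO R300 3, KO blank 3, WT R300 2 and WT blank 3. The Xist-free libraries, 1 per group, had markers of resident large peritoneal macrophages at 203 to 240 CPM in sum, against 515 to 1058 CPM in the others. Within the R300 groups, KO R300 1 and 2 and WT R300 1 and 3 were close to copies of each other (median chi-square per gene 1.60 and 1.43, against 5.35 to 9.20 for the other 10 pairs of a group and 0.455 for sampling noise alone). They were kept as separate replicates, with each pair also tested as 1 library.

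Set per kilobase of exon, the activating receptors Clec4d, Clec7a and Clec4e were the most abundant of the 8 and Clec10a the least. Over the 12 libraries Clec4d averaged 490 ± 109 CPM per kilobase, Clec7a 323 ± 141 and Clec4e 291 ± 93.4 (SD, n = 12). This spread pools both treatments. In blank the mean of Clec7a (191 in KO, 203 in WT) lay below those of Clec4e (328 and 317) and Clec4d (427 and 442). With R300 the mean of Clec7a (468 in KO, 427 in WT) lay above that of Clec4e (248 and 269) and below that of Clec4d (580 and 512). Clec4n followed at 60.4 ± 36.0 CPM per kilobase, and its highest library (128) lay below the lowest of Clec4e (207.5). Mrc1 averaged 24.3 ± 6.95, Clec12a 19.5 ± 6.59 and Clec4a2 15.4 ± 3.03 CPM per kilobase, with overlapping ranges, and Clec10a averaged 8.55 ± 2.28. With the longest transcript as the length, Clec12a came to 33.3 CPM per kilobase and passed Mrc1.

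**Figure D1:**
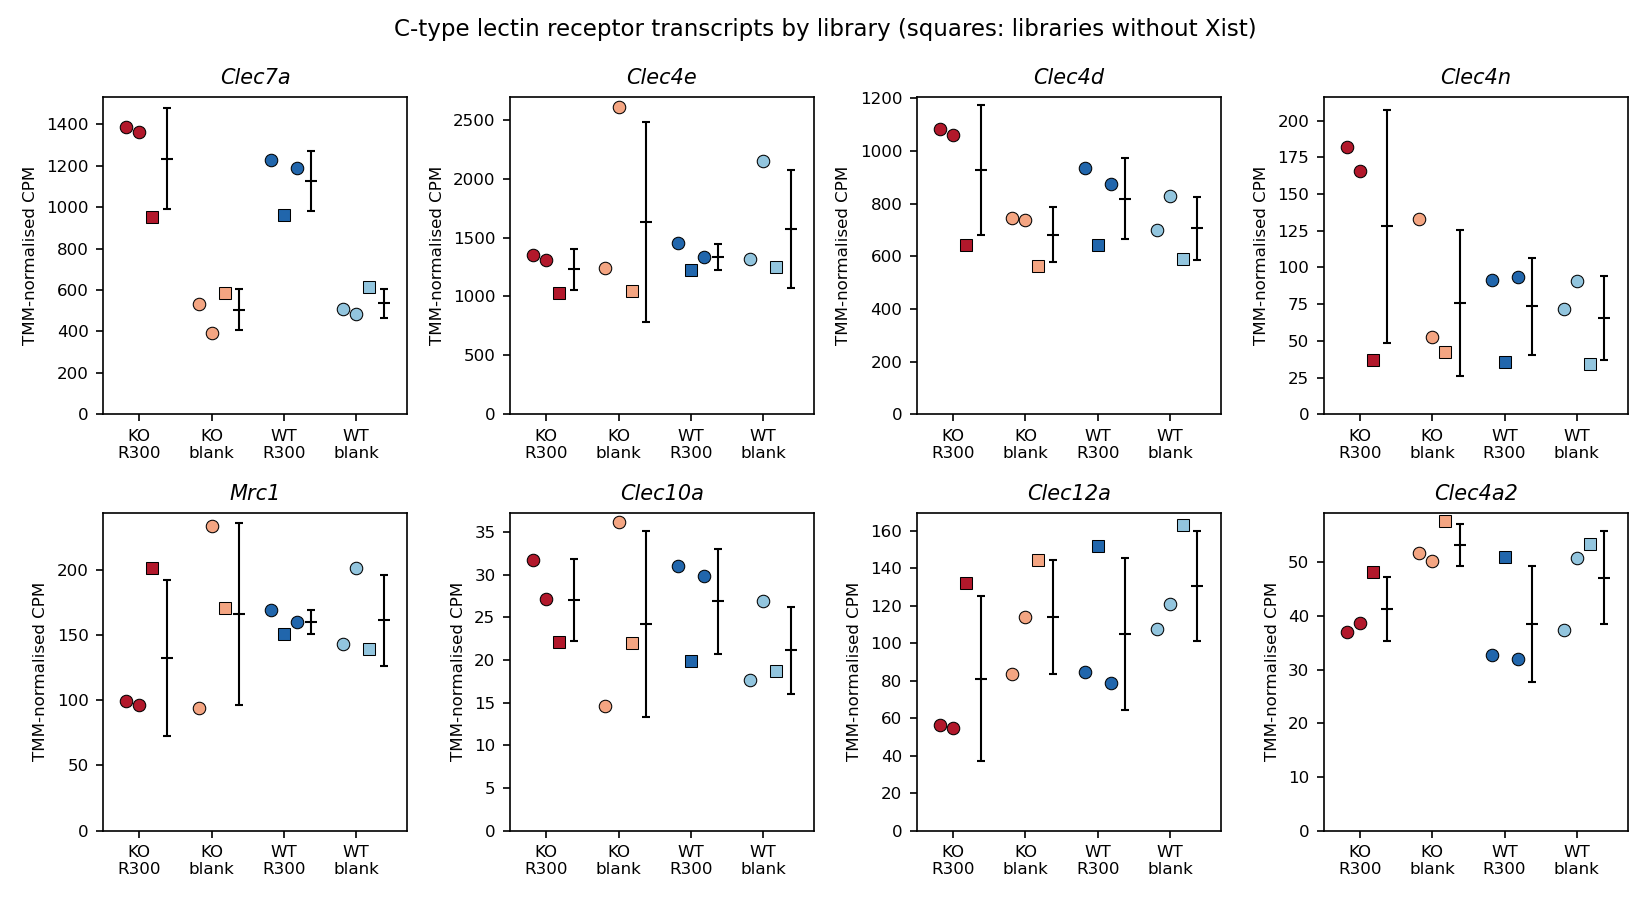
TMM-normalised CPM of the 8 transcripts in every library (points), with the mean and SD of each group of 3 as bars; squares are the 4 libraries without Xist, and each y axis starts at 0. Clec7a stood at 952 to 1388 CPM in the 6 R300 libraries, above all 6 blank libraries (394 to 615 CPM), whereas the groups of the other receptors overlapped, except Clec4a2 in KO cells.

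Clec7a, the β-glucan receptor dectin-1, was the receptor transcript that rose in macrophages given R300-coated platelets, and it did so in both genotypes. It had 1388, 1365 and 952 CPM in KO R300 libraries, against 534, 394 and 588 CPM in KO blank libraries. In WT R300 libraries it had 1229, 963 and 1191 CPM, against 507, 484 and 615 CPM in WT blank libraries. In each genotype the lowest R300 library lay above the highest blank library. The rise was 2.45-fold in KO cells (log2 difference 1.29, SE 0.19, 95% interval 0.87 to 1.71, adjusted p = 0.0112) and 2.11-fold in WT cells (1.07, SE 0.19, 0.66 to 1.49, adjusted p = 0.0351), by edgeR's quasi-likelihood test with Benjamini-Hochberg adjustment over all genes tested. Averaged over the genotypes it was 2.27-fold (log2 1.18, SE 0.13, 0.89 to 1.48, adjusted p = 0.000868).

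Clec7a was thus 1 of 8 receptors called with R300 in KO cells, where 0.834% of all genes tested were called, and 1 of 8 in WT cells, where 0.623% were. In the comparison averaged over genotypes it was again 1 of 8, beside 3.64% of all genes. Its groups did not overlap in either genotype, as for 12.3% of all genes in KO cells and 12.8% in WT cells. In the 4 Xist-free libraries alone the rise was smaller: Clec7a had 952 CPM in KO R300 and 588 CPM in KO blank (1.62-fold), and WT R300 had 963 CPM, against 615 CPM in WT blank (1.57-fold). In the other 8 libraries it was 3.00-fold in KO cells and 2.44-fold in WT cells.

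The calls within a genotype were close to the threshold. The KO call was lost without KO R300 1 or 2 or KO blank 1 (adjusted p = 0.0695, 0.0665 and 0.0533), with only the 2 groups compared in the fit (0.110) and with each near-copied pair as 1 library (0.130). Leaving out either of KO R300 1 and 2 (0.0565 and 0.0628), KO blank 1 (0.0554), either of WT R300 1 and 3 (0.175 and 0.167) or any of the WT blank libraries (0.188, 0.143 and 0.0693) ended the WT call. It was also lost with library totals as the scaling (0.0598), with only the 2 groups compared (0.0608) and with each near-copied pair as 1 library (0.287). The call averaged over genotypes was kept in every setting run, with adjusted p at most 0.0163, and in all settings the log2 difference stayed between 1.14 and 1.57 in KO cells and between 1.01 and 1.29 in WT cells.

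**Figure D2:**
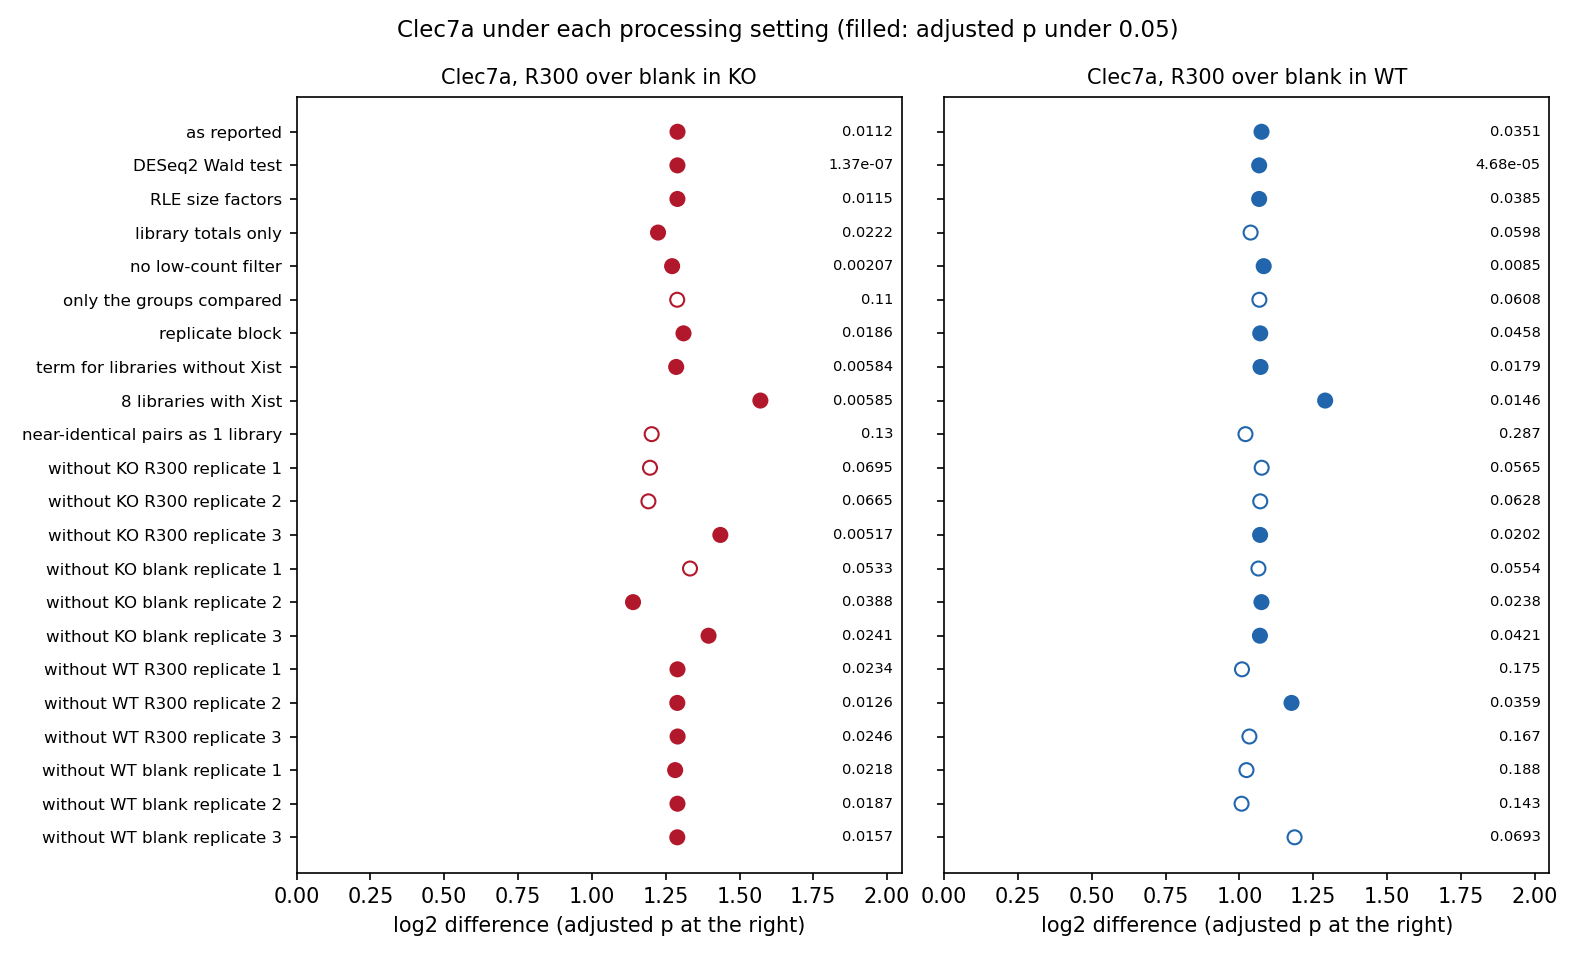
Log2 difference of Clec7a (x axis, R300 over blank) in KO cells (left) and WT cells (right) for each processing setting and with each library left out; filled points have an adjusted p under 0.05, printed at the right. The size of the rise stayed above 1 on the log2 scale in every row, while the adjusted p ran up to 0.130 in KO cells and 0.287 in WT cells.

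The FcRγ-coupled receptors did not pass the test with R300 in either genotype. Clec4d, the mincle partner MCL, had 1083, 1058 and 641 CPM in KO R300 libraries, against 745, 738 and 563 CPM in KO blank libraries. In WT R300 it had 937, 644 and 875 CPM, against 701, 828 and 589.5 CPM in WT blank. Its groups overlapped in both genotypes, and the log2 differences were 0.44 (SE 0.22, adjusted p = 0.653) in KO cells and 0.21 (SE 0.22, adjusted p = 0.889) in WT cells by edgeR's test. The 95% intervals reached 0.94 and 0.71, so rises of up to that size lie within the error. With a term for the Xist-free libraries the difference averaged over genotypes was 0.31 (SE 0.07) and passed the test (adjusted p = 0.0200), against 0.33 (SE 0.16, adjusted p = 0.356) without the term; in the 8 Xist libraries alone it was 0.39 (adjusted p = 0.0428).

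Clec4e encodes mincle, which binds mycobacterial glycolipid and a nuclear protein released by dying cells. It had 1350, 1309 and 1030 CPM in KO R300 libraries, against 1240, 2607 and 1046 CPM in KO blank libraries. WT R300 libraries had 1451, 1227 and 1335 CPM, against 1318, 2153 and 1253 CPM in WT blank. The groups overlapped, and blank 2 of each genotype stood above the other 10 libraries, which ran from 1030 to 1451 CPM. The log2 differences were -0.41 (SE 0.32, adjusted p = 0.869) in KO cells and -0.24 (SE 0.32, adjusted p = 0.930) in WT cells, and they turned to 0.11 without KO blank 2 and 0.06 without WT blank 2.

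The same pair of blank 2 libraries was high in other gene groups. Genes described as induced through dectin-1, dectin-2 or mincle summed to 8187 CPM in KO blank 2 and 5132 CPM in WT blank 2, against 2395 to 4105 CPM in the other 10. The 10 B cell markers summed to 275 and 303 CPM in them, against 65.0 to 140 CPM elsewhere, and the 12 neutrophil markers to 290 and 296 CPM, against 166 to 222 CPM. Clec7a was lowest in these 2 libraries, at 394 CPM in KO blank 2 and 484 CPM in WT blank 2, against 507 to 1388 CPM in the other 10. Its log2 rise with R300 was 1.14 in KO cells without KO blank 2 and 1.01 in WT cells without WT blank 2. These were the smallest values with 1 library left out. The part of B cells and neutrophils in the Clec4e and Clec7a values was not tested. In bulk RNA, fewer cells of a type and less RNA per cell cannot be told apart.

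Clec4n, the mannan receptor dectin-2, varied most between libraries, over a 5.32-fold range. It had 182, 166 and 37.1 CPM in KO R300 libraries, against 133, 52.5 and 42.5 CPM in KO blank libraries. In WT R300 it had 91.8, 35.4 and 93.6 CPM, against 71.6, 90.5 and 34.1 CPM in WT blank. The groups overlapped, and the lowest library of each group was the Xist-free one. The log2 differences were 0.75 (SE 0.63, adjusted p = 0.891) in KO cells and 0.17 (SE 0.63, adjusted p = 0.979) in WT cells, with 95% intervals of -0.63 to 2.13 and -1.21 to 1.55. With 1 library left out, the KO value of Clec4n ran between 0.41 (without KO R300 1) and 1.43 (without KO blank 1). The WT value was -0.14 without WT blank 3 and 0.50 without WT R300 2.

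The inhibitory receptors had lower fitted values with R300 but did not pass the test. Clec4a2, which encodes DCIR, had 37.0, 38.6 and 48.2 CPM in KO R300 libraries, against 51.7, 50.2 and 57.7 CPM in KO blank libraries. In WT R300 it had 32.7, 51.0 and 32.0 CPM, against 37.3, 50.7 and 53.3 CPM in WT blank. The KO groups did not overlap, as for 5.68% of all genes with R300 below blank, and the WT groups did. The log2 differences were -0.37 (SE 0.19, adjusted p = 0.690) in KO cells and -0.29 (SE 0.19, adjusted p = 0.761) in WT cells, and -0.33 (SE 0.14) averaged over genotypes, with an unadjusted p of 0.0362 and an adjusted p of 0.275. The averaged value passed the test with a term for the Xist-free libraries (-0.35, with 0.0337 as its adjusted p) and once WT R300 2 was left out (-0.46, 0.0444).

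Clec12a, which encodes MICL, a receptor of uric acid crystals and dead cells, had 56.3, 54.7 and 132 CPM in KO R300 libraries, against 83.3, 114 and 145 CPM in KO blank libraries. WT cells with R300 had 84.5, 152 and 78.9 CPM, against 107, 121 and 163 CPM in WT blank. The groups overlapped, and in each group the highest library was the Xist-free one. The log2 differences were -0.49 (SE 0.37, adjusted p = 0.853) in KO cells and -0.31 (SE 0.37, adjusted p = 0.910) in WT cells. They came to -1.05 without KO R300 3 and to -0.67 without WT R300 2, the Xist-free R300 libraries, and to -0.29 without KO R300 1 and -0.12 without WT blank 3. Averaged over genotypes the difference was -0.40 (SE 0.26, adjusted p = 0.518), and it passed the test with a term for the Xist-free libraries (-0.47, adjusted p = 0.0290) and in the 8 Xist libraries alone (-0.65, adjusted p = 0.0165).

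The endocytic receptors showed no difference beyond the spread. Clec10a, which encodes MGL1, had 31.7, 27.2 and 22.1 CPM in KO R300 libraries, against 14.6, 36.1 and 22.0 CPM in KO blank libraries. WT cells with R300 had 31.0, 19.8 and 29.8 CPM, against 17.7, 27.0 and 18.7 CPM in WT blank. The groups overlapped, with log2 differences of 0.15 (SE 0.31, adjusted p = 0.978) in KO cells and 0.35 (SE 0.31, adjusted p = 0.855) in WT cells; the KO value turned to -0.11 without KO blank 1. Mrc1, the mannose receptor, had 99.5, 96.1 and 202 CPM in KO R300 libraries, against 94.1, 233 and 170 CPM in KO blank libraries. In WT R300 it had 169, 150 and 160 CPM, against 143, 202 and 139 CPM in WT blank. These groups overlapped too, and the differences were -0.33 (SE 0.34, adjusted p = 0.935) in KO cells and -0.01 (SE 0.34, adjusted p = 0.997) in WT cells. The WT value turned to 0.18 without WT blank 2, and the KO value was -0.77 without KO R300 3.

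Over the 8 receptors, 4 differences with R300 were positive and 4 negative in each genotype. The median was -0.09 on the log2 scale in KO cells and 0.08 in WT cells, beside medians that rounded to 0.00 over all genes tested.

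**Figure D3:**
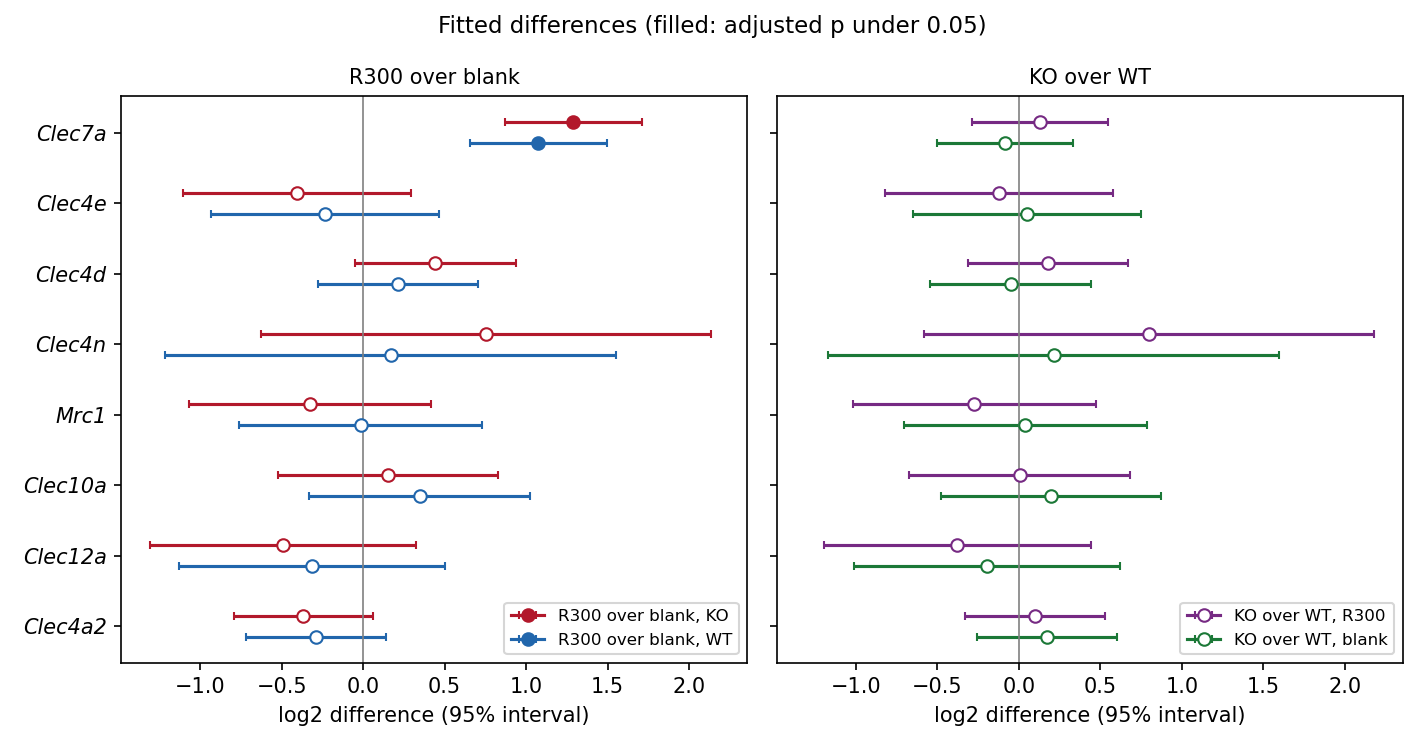
Fitted log2 differences with 95% intervals for R300 over blank in each genotype (left) and KO over WT in each condition (right); filled points have an adjusted p under 0.05. Clec7a in both genotypes is filled at the left (1.29 in KO cells, 1.07 in WT cells), no point is filled at the right, and the intervals of Clec4n are the widest.

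None of the 8 transcripts differed between the genotypes past the threshold. Between KO R300 and WT R300, and between KO blank and WT blank, 0 of 8 were called by edgeR's quasi-likelihood test, 0 had an unadjusted p under 0.05 and 0 were called by DESeq2. Among all genes tested 0% were called in both comparisons, while 324 and 181 genes had an unadjusted p under 0.05 and DESeq2 called 14 and 4. The Clec7a levels of the genotypes overlapped: the log2 difference, KO minus WT, was 0.13 (SE 0.19, 95% interval -0.29 to 0.55) with R300 and -0.08 (SE 0.19, -0.50 to 0.34) in blank. The largest of the 16 differences was that of Clec4n with R300, at 0.80 (SE 0.63, -0.58 to 2.18), and it ran between 0.46 (without KO R300 1) and 1.24 (without KO R300 3) with 1 library left out. In the Xist-free libraries Clec4n was at 37.1 CPM in KO R300, against 35.4 CPM in WT R300.

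Averaged over treatments, 0 of 8 were again called, beside 0.00604% of all genes tested, with 0 of 8 at an unadjusted p under 0.05 and 0 by DESeq2. The 1 gene called there was Lyz2, a lysozyme of macrophages and a gene outside the receptor family, at 7090 ± 186 CPM in KO R300, against 12525 ± 298 CPM in WT R300; in KO blank it was at 6718 ± 632 CPM, against 13000 ± 465 CPM in WT blank (SD, n = 3 each). Its call ended in the 8 Xist libraries and with near-copied pairs as 1 library. In the Xist-free libraries Lyz2 was at 6888 CPM in KO R300, against 12729 CPM in WT R300. In blank these libraries had 6780 CPM in KO, against 12845 CPM in WT. The 8 Xist libraries were not alike across genotypes. Their Y-linked transcripts summed to 47.8 and 48.9 CPM for KO R300, against 162 and 150 CPM for WT R300. For KO blank the sums were 42.6 and 71.6 CPM, against 149 and 69.5 CPM for WT blank. Markers of resident large peritoneal macrophages were positive, KO minus WT, in 9 of 10 genes with R300 (median log2 0.71) and in 9 of 10 in blank (0.73). Averaged over treatments the median was 0.74. There 0 of these markers were called by edgeR or DESeq2 and 4 had an unadjusted p under 0.05 (464 of all 16546 genes). Their sum was 240.2 to 1058 CPM in KO R300, against 217 to 652 CPM in WT R300, and 219 to 956 CPM in KO blank, against 203 to 615 CPM in WT blank. The part of the Y-linked imbalance or of these markers in the genotype differences was not tested.

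The response to R300 platelets was not shown to depend on Ern1 for any receptor. The difference of the responses, KO minus WT, was 0.22 for Clec7a on the log2 scale (SE 0.27, 95% interval -0.38 to 0.81). For the other 7 it lay between -0.31 for Mrc1 and 0.59 for Clec4n, which ran between 0.24 (without KO R300 1) and 1.27 (without KO blank 1) with 1 library left out. Among the 8, 0 were called by edgeR or DESeq2, with 0 at an unadjusted p under 0.05. Over all genes tested 0% were called in this comparison, 95 had an unadjusted p under 0.05 and DESeq2 called 0. The interval of Clec7a reaches a 1.75-fold larger response in KO cells.

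Apart from treatment and genotype, Clec4d and Clec4n ran together across the 12 libraries and Clec12a ran against both. The 4 Xist-free libraries had 563 to 644 CPM of Clec4d and 34.1 to 42.5 CPM of Clec4n, against 701 to 1083 CPM and 52.5 to 182 CPM in the other 8. Clec12a was at 132 to 163 CPM in the Xist-free libraries, against 54.7 to 121 CPM in the others. None of these ranges overlapped, while those of Clec7a, Clec4e, Clec4a2, Clec10a and Mrc1 did. The share of all genes that split in this way was not counted. KO R300 1 and 2, with the highest Clec4n and Clec4d of all libraries, had the lowest Clec12a. On the log2 scale the Xist-free mean minus the other mean was -1.46 for Clec4n, -0.50 for Clec4d, -0.44 for Clec4e, 0.81 for Clec12a and 0.37 for Clec4a2. The Xist-free libraries also held less of the platelet markers (52.8 to 69.0 CPM in sum, against 87.2 to 126 CPM), and which of these properties the receptor levels go with cannot be told apart.

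**Figure D4:**
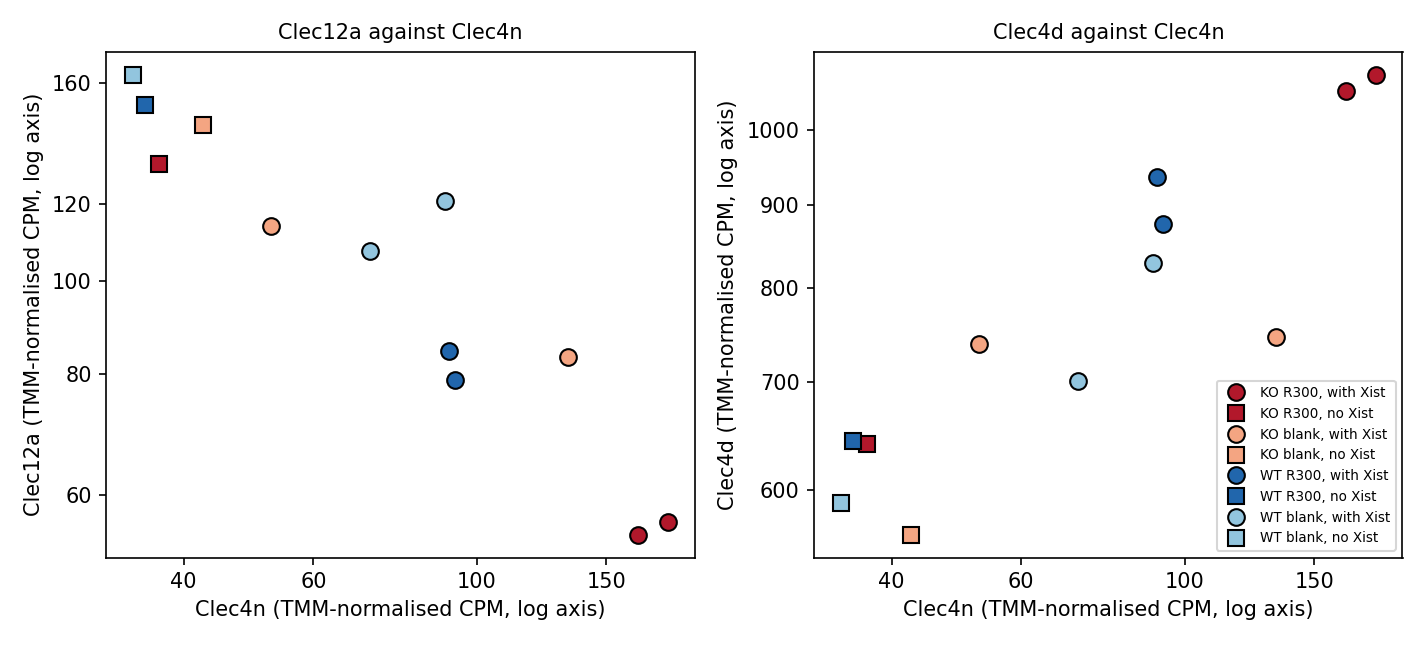
Clec12a (left) and Clec4d (right) against Clec4n in the 12 libraries, TMM-normalised CPM on log axes; squares are the libraries without Xist. The squares sit at 34.1 to 42.5 CPM of Clec4n, with Clec12a at 132 to 163 CPM and Clec4d at 563 to 644 CPM, and KO R300 1 and 2 sit at the opposite corner.

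The genes most alike in pattern were found by Pearson's r of log2 CPM over the 12 libraries, among 8117 genes with a mean of at least 10 CPM; the libraries share the Xist split, the near-copied pairs and the treatment, so r is a description. For Clec7a they were Cnnm2 (0.983), Mknk2 (0.979) and Gpn3 (0.976). Clec4d was closest to Bclaf3 (0.976), Olr1 (0.972) and Slpi (0.965), and Clec4n to Smpdl3b (0.980), Spint1 (0.975) and Chsy1 (0.973). Clec4e was closest to Serp1 (0.988), Bcl2a1d (0.967) and St3gal1 (0.964). Among the inhibitory receptors, Clec12a was closest to Grk3 (0.987), Pea15a (0.979) and Dnmt3a (0.977), and Clec4a2 to Gsk3b (0.964), Zzz3 (0.962) and Tcf12 (0.962). Clec10a (Rpl12, 0.959) and Mrc1 (Hal, 0.926) had the least close partners.

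Of the 42 other C-type lectin receptor genes 27 were tested, and edgeR called 1 with R300 in each genotype. That count stands beside 0.834% of all genes in KO cells and 0.623% in WT cells. The gene was Thbd, which encodes the anticoagulant lectin-like receptor thrombomodulin, and it rose in both genotypes. It had 129, 125 and 57.2 CPM in KO R300, against 25.7, 19.5 and 23.3 CPM in KO blank. WT R300 libraries had 94.6, 50.7 and 94.0 CPM, against 26.7, 16.4 and 17.6 CPM in WT blank. Neither genotype's groups overlapped, as for 12.3% of all genes in KO cells and 12.8% in WT cells. The rise was 4.54-fold in KO cells (adjusted p = 0.0144) and 3.95-fold in WT cells (adjusted p = 0.0291) by edgeR's test. The KO call was lost without KO R300 1 or 2 or any 1 of the KO blank libraries (adjusted p up to 0.0716), and the WT call without WT R300 1 or 3, KO R300 2 or any 1 of the WT blank libraries (up to 0.144). Both ended without the count filter, with only the 2 groups compared and with each near-copied pair as 1 library. The call averaged over genotypes (4.24-fold) was kept without any 1 library. The median log2 difference over the 27 was -0.08 in KO cells and 0.07 in WT cells.

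Averaged over genotypes, 2 of the 27 rose, Thbd and Clec1a, and 2 fell, Clec4a3 and Clec5a, the last of which encodes a myeloid receptor that signals through the adaptor DAP12. These 4 of 27 stand beside 3.64% of all genes tested. At an unadjusted p under 0.05 there were 14 of the 27, beside 2587 of all 16546 genes tested. DESeq2 called 10 of the 27, beside 1222 of all genes. Clec1a, Clec4a3 and Clec5a, like the genes below that passed the test in the averaged comparison alone, are named because they were the ones called there, after their values were seen. Clec1a was low throughout, at 0.731 to 1.17 CPM in KO R300, 0.328 to 0.370 in KO blank, 0.692 to 0.790 in WT R300 and 0.260 to 0.562 in WT blank. Clec5a was 0.576-fold (log2 -0.80, SE 0.16, adjusted p = 0.0209) and Clec4a3, a relative of DCIR, 0.734-fold (-0.45, SE 0.10, adjusted p = 0.0360). Leaving out KO R300 1 or 2, KO blank 3, WT R300 1 or 3, or WT blank 2 ended the Clec1a call, and leaving out KO R300 1 or 2, KO blank 1, or WT R300 1 or 3 ended that of Clec5a. The Clec4a3 call held with KO R300 3, WT R300 2 or WT blank 3 left out and ended with any other.

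Most adaptors and kinases next to the receptors had negative values with R300: 15 of 22 in KO cells (median -0.25) and 16 in WT cells (median -0.26). Over all genes tested 49.3% and 49.1% were positive. The 22 summed to 4802 CPM in KO blank 2 and 4351 CPM in WT blank 2, against 3453 to 4143 CPM in the other 10 libraries. Within a genotype edgeR called 0 of the 22. In each genotype 7 of the 22 had an unadjusted p under 0.05, beside 1452 (KO) and 1442 (WT) of all 16546 genes. DESeq2 called 1 of the 22 in each, beside 442 of all genes in KO cells and 363 in WT cells. Averaged over genotypes, 4 of the 22 fell and 0 rose by edgeR's test, Fgr, Pik3cg and Vav1 among them, beside 3.64% of all genes. In that comparison 10 of the 22 had an unadjusted p under 0.05, beside 2587 of all genes, and DESeq2 called 7, beside 1222. Fgr, a Src-family kinase, had 232, 220 and 226 CPM in KO R300, against 336, 318 and 266 CPM in KO blank. WT R300 libraries had 219, 239 and 211 CPM, against 310, 350 and 270 CPM in WT blank. It came to 0.729-fold (log2 -0.46, SE 0.08, adjusted p = 0.0125), a call kept without any 1 library. The phosphoinositide kinase subunit Pik3cg and the exchange factor Vav1 lay at 0.654- and 0.658-fold (adjusted p = 0.0378 and 0.0401). These calls rested on most libraries: that of Pik3cg held with KO blank 3, WT R300 2 or WT blank 1 or 3 left out, and that of Vav1 with KO R300 3 or WT R300 2 left out, and each ended with any other library left out.

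Among 24 genes of the CARD9 module and its NF-κB and NFAT effectors, 5 had an unadjusted p under 0.05 in the averaged comparison. DESeq2 called 1. Over all 16546 genes these counts were 2587 and 1222. By edgeR 1 of the 24 was called there, beside the 3.64% of all genes. It was Irf1, an interferon regulatory factor, which fell (0.441-fold, log2 -1.18, SE 0.22, adjusted p = 0.0163). Of the 24, 16 were negative in KO cells and 17 in WT cells. Their sum was 4722 CPM in KO blank 2 and 4080 CPM in WT blank 2, against 2802 to 3739 CPM in the other 10 libraries. Of 16 phosphatases and negative regulators edgeR called 0 in any comparison. They summed to 6301 CPM in KO blank 2 and 5778 CPM in WT blank 2, against 3778 to 5397 CPM in the other 10 libraries. Of the 16, 13 were negative in KO cells and 14 in WT cells. In the averaged comparison 5 had an unadjusted p under 0.05 and DESeq2 called 1, and Ptpn6, the phosphatase SHP-1, had the lowest p (averaged log2 -0.43, SE 0.12, adjusted p = 0.0839). Of 24 tested genes described as induced through these receptors, Csf3 and Egr3 rose and Tnf fell in the averaged comparison, 3 of 24 beside 3.64% of all genes, with 11 at an unadjusted p under 0.05 and 7 called by DESeq2. Tnf, a cytokine, had 53.7, 53.5 and 62.1 CPM in KO R300, against 113, 434 and 106 CPM in KO blank. WT R300 libraries had 67.2, 80.2 and 55.7 CPM, against 148, 239 and 157 CPM in WT blank. Its averaged level with R300 was 0.311-fold (adjusted p = 0.0178), that of the transcription factor gene Egr3 2.10-fold (0.0148) and that of the cytokine gene Csf3 6.23-fold (0.0404), the last at 0.355 to 10.2 CPM. The calls of Irf1 and Tnf were lost without KO R300 1 or 2 or WT R300 1 or 3, that of Egr3 without KO R300 2, and that of Csf3 was kept only without KO R300 3, KO blank 2 or WT R300 2.

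Of 8 tested genes of endogenous ligands edgeR called 1 in the averaged comparison, beside 3.64% of all genes. It was Pdpn, which encodes podoplanin, the ligand of the platelet receptor CLEC-2, and it rose. It had 326, 348 and 342 CPM in KO R300, against 69.7, 215 and 161 CPM in KO blank. WT R300 libraries had 329, 299 and 337 CPM, against 97.8, 109 and 158 CPM in WT blank. In each genotype the R300 libraries lay above all blank libraries. Groups did not overlap, in either direction, for 12.3% of all genes in KO cells and 12.8% in WT cells. The averaged rise of Pdpn was 2.46-fold (adjusted p = 0.0100), a call kept without any 1 library. Of 18 genes tied to regulation of the mannose receptor and dectin-1 and to alternative activation, 1 rose and 1 fell in the averaged comparison. These calls by edgeR stand beside 3.64% of all genes. They were the transcription factor genes Klf4 (2.15-fold, adjusted p = 0.00755) and Tfec (0.533-fold, adjusted p = 0.00528), and both calls were kept without any 1 library. With each near-copied pair as 1 library, the averaged calls of all these genes but Thbd ended; in the 8 Xist libraries those of Klf4 and Clec1a did, and without the count filter those of Irf1, Tnf and Csf3. Over these 7 lists with 139 genes tested, edgeR called 0 between KO and WT with R300 and 0 in blank, with 1 and 2 at an unadjusted p under 0.05 and 0 called by DESeq2 in each.

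Markers of other cells moved with R300 as well. Those of recruited monocytes, which also carry several of these receptors, were negative in 9 of 10 genes in KO cells and 10 of 10 in WT cells; their sum was 517 to 793 CPM in KO R300 and 581.5 to 1068 CPM in KO blank, against 600 to 698 CPM in WT R300 and 722 to 1032 CPM in WT blank. In the averaged comparison 2 of these 10 fell and 0 rose by edgeR's test, beside 3.64% of all genes called. They were Cx3cr1 and Gpr141 (0.354- and 0.361-fold, adjusted p = 0.0203 and 0.0316). Both calls were lost without KO R300 1 or 2 or WT R300 1 or 3, and that of Gpr141 also without KO blank 1 or 2 or WT blank 2. Both ended too without the count filter and with near-copied pairs as 1 library. Of 12 dendritic cell markers, 5 were positive and 7 negative with R300 in KO cells (median -0.18) and 7 positive and 5 negative in WT cells (median 0.26). Ccr7, a chemokine receptor, was the 1 of the 12 called in each genotype, beside 0.834% of all genes in KO cells and 0.623% in WT cells. It rose 2.83-fold in KO cells (adjusted p = 0.0490) and 3.26-fold in WT cells (adjusted p = 0.0351) by edgeR's test. Its mean was 38.4 ± 10.1 CPM in KO R300, against 13.5 ± 4.45 CPM in KO blank; WT R300 averaged 41.8 ± 9.30 CPM, against 12.8 ± 3.97 CPM in WT blank (SD, n = 3 each). The list with Ccr7 included summed to 68.6 to 85.2 CPM in KO R300 and 48.8 to 64.4 CPM in KO blank, and to 67.2 to 99.8 CPM in WT R300 and 38.1 to 54.8 CPM in WT blank. The Ccr7 call in KO cells was lost without KO R300 1 or 2, KO blank 1 or 3, WT R300 1 or 3, or WT blank 1 or 3, and that in WT cells without KO R300 1 or 2, KO blank 1, WT R300 1 or 3, or WT blank 1 or 3. The KO call also ended with other scalings, without the filter, with only the 2 groups compared, in the 8 Xist libraries and with near-copied pairs as 1 library, and the WT call without the filter, with only the 2 groups compared and with near-copied pairs as 1 library.

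The remaining marker lists moved as follows. Of 11 tested genes of eosinophils and mast cells, 1 was called in each genotype, beside 0.834% of all genes in KO cells and 0.623% in WT cells. It was Gata2, a transcription factor, which rose (4.06-fold in KO cells, 4.29-fold in WT cells). In each genotype 9 of the 11 were positive, with medians of 0.68 in KO cells and 1.03 in WT cells. Averaged over genotypes 3 of the 11 rose, Gata2, Mcpt4 and Tpsb2, beside 3.64% of all genes called. Of the 11, 7 were at an unadjusted p under 0.05 and 5 were called by DESeq2. Over all 16546 genes these counts were 2587 and 1222. The call of the mast cell protease gene Mcpt4 held with WT blank 3 left out and ended with any other. That of the tryptase gene Tpsb2 was lost without KO R300 1 or 2, KO blank 1, WT R300 1 or 3, or WT blank 1 or 2. Both calls also ended with near-copied pairs as 1 library, and that of Mcpt4 in the 8 Xist libraries. The list summed to 49.2 to 97.6 CPM in KO R300 and 34.0 to 75.0 CPM in KO blank, while WT R300 libraries had 51.5 to 59.8 CPM, against 20.7 to 51.7 CPM in WT blank. Averaged over treatments, KO minus WT, 9 of the 11 were positive and 2 negative (median log2 0.60). In that comparison edgeR called 0 and DESeq2 called 3, with 4 at an unadjusted p under 0.05. Over all genes DESeq2 called 50 there and 464 had an unadjusted p under 0.05. B cell markers were negative with R300 in 10 of 10 genes in each genotype, and mesothelial and fibroblast markers positive in 11 of 11. Of either list edgeR and DESeq2 called 0 in either genotype. At an unadjusted p under 0.05 there were 0 of either list in KO cells and 5 and 1 in WT cells. Over all genes there were 1452 in KO cells and 1442 in WT cells. The B cell list summed to 275 CPM in KO blank 2, against 140 and 117 CPM in KO blank 1 and 3 and 77.1 to 129.5 CPM in KO R300. In WT blank 2 it summed to 303 CPM, against 71.5 and 76.8 CPM in WT blank 1 and 3 and 65.0 to 86.8 CPM in WT R300. Neutrophil markers were negative in 6 of 9 in KO cells and 8 of 9 in WT cells. Their sum was highest in KO blank 2 (290 CPM) and WT blank 2 (296 CPM), against 166 to 222 CPM in the other 10 libraries. Platelet markers were positive in 4 of 7 in each genotype, and T and NK cell markers summed to at most 8.49 CPM. The part of any of these markers in the rise of Clec7a was not tested.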

How the data were processed

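Poly(A) RNA was sequenced in 12 libraries. The submitters' processing notes name the mm10 build, featureCounts 2.0.3, DESeq2 1.42.0, FastQC 0.12.1, fastp 0.23.4 and HISAT2 with 2 as its version. The values the authors deposited are raw counts per gene symbol. The NEBNext Ultra kit named in the labels' protocols does not mark the strand, and the counting options are not given in the sources used here. The 12 sample files equalled the table. Rows without a symbol (102, holding 0.0232% to 0.0328% of counts) were left out, and 18 symbols had more than 1 row (38 rows).

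The counts were tested with edgeR 4.0.16 in R 4.3.3 (TMM scaling, filterByExpr with a minimum count of 10, robust quasi-likelihood fit of 1 mean per group over all 12 libraries), with a Benjamini-Hochberg adjusted p under 0.05 called. Over all genes the biological coefficient of variation was 0.267. For a single value in 3 against 3 libraries, an exact two-sided permutation test goes no lower than 0.1. The labels call the replicates biological but do not tie them to mice. Same-numbered libraries of KO blank and WT blank deviated from their group means together (r = 0.514, 0.535 and 0.558), so by the data, not the labels, the numbers pair these 2 groups; no other 2 groups had every r above 0.1. The code was checked on simulated counts. DESeq2 1.42.0, other scalings, no filter, a replicate block, the Xist split and each library left out were tried as alternatives.

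The 8 receptors, 17 gene lists and tests were chosen with earlier results of these data known. Every receptor is named; from each list, the called genes of a comparison between 2 groups, or else those with the lowest p, and the 3 genes most alike each receptor. The eosinophil and mast cell, mesothelial, B cell, T and NK cell and platelet lists served as markers of other cells. Exons and positions are from GENCODE M21, promoters from RefSeq. 1 gene of the adaptor and kinase list is not reported here.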

Additional observations from a re-analysis of the deposited data

How the results depend on the processing

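Of the 672 values of single receptors obtained by leaving out 1 of the 12 libraries, 611 kept their direction and their side of the threshold, 49 changed sign, 11 lost a call and 1 gained one. Of 488 values under the 10 other alternatives, 465 kept both, 13 changed sign, 5 lost a call and 5 gained one. Every value that changed sign had an adjusted p of 0.940 or more. For the difference of responses and the comparisons averaged over genotypes or treatments, fitting only the groups compared uses all groups, so it gives no separate value.

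Between most groups the replicate numbers did not pair the libraries. Over all pairs of groups, same-numbered libraries deviated from their group means with correlations between -0.60 and 0.61 over 18 pairs, and the best match had its own number in 16 of 36 cases. With the replicate block, 141 genes were called with R300 in KO cells, 119 in WT cells and 667 averaged over genotypes. Clec7a stayed called in the blocked edgeR fit at 1.31 in KO cells (adjusted p = 0.0186), 1.07 in WT cells (0.0458) and 1.19 averaged (0.00213). None of the 8 receptors changed its call under the block. The averaged calls of Clec4a3, Csf3 and Mcpt4 and that of Ccr7 in KO cells ended there. Signs turned in the blocked fit for Mrc1 (R300 in WT cells, 0.00921, and KO against WT in blank, -0.00878) and for Clec10a (KO against WT with R300, -0.0198). KO blank and WT blank libraries with the same number did deviate together, so the block was also fitted to those 2 groups alone, an alternative chosen after seeing the data. It called 0 genes and 0 receptors for KO against WT in blank, as without the block, and turned the signs of Clec4e (-0.0243) and Mrc1 (-0.0311).

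Counts of genes called moved most with the tool, the Xist split and the near-copied pairs. DESeq2 called 442 genes with R300 in KO cells, 363 in WT cells and 1222 averaged over genotypes, and 14, 4 and 50 genes for KO against WT with R300, in blank and averaged over treatments. A term for the Xist-free libraries gave 450, 347 and 1492 genes for the 3 R300 comparisons, with 4 receptors called in the averaged one, and 1 and 28 for KO against WT in blank and averaged. The 8 Xist libraries gave 290, 242 and 1004, with 3 receptors called in the averaged comparison, and 0 for KO against WT averaged. With each near-copied pair as 1 library the counts were 35, 27 and 158, with 0 receptors called in KO cells and 0 in WT cells, and 0 for KO against WT averaged. Only the groups compared gave 43 genes in KO cells and 41 in WT cells, with 0 receptors called in each. Library totals left 0 receptors called in WT cells. Without a filter, 1 gene was called for KO against WT in blank and 1 with R300. The 8 Xist libraries, the merged pairs and the fits of only the groups compared hold fewer libraries, and for the other settings the cause was not tested.

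Sign changes of single receptors outside the block were these. Clec10a, KO against WT with R300, was -0.00853 with library totals, -0.0101 without a filter, -0.00126 with only the groups compared and -0.0409 in the 8 Xist libraries. In those 8 libraries Mrc1, KO against WT in blank, was -0.0728, Clec4e averaged over treatments 0.0452 and the difference of responses of Clec4a2 0.0196. Clec4n with R300 in WT cells was -0.0308 with near-copied pairs as 1 library. On the longest transcript Clec12a came to 33.3 CPM per kilobase.

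Leaving out 1 library, genes called ranged from 45 (without KO R300 1) to 171 (without KO R300 3) in KO cells, from 32 (without WT R300 1) to 135 (without WT R300 2) in WT cells, from 308 to 852 averaged over genotypes (without WT R300 1 and without WT R300 2), and from 1 to 10 (without KO blank 2) for KO against WT averaged. Receptors called ranged from 0 to 1 in KO cells and in WT cells, and from 1 to 2 averaged. With R300 in KO cells, Clec4e ranged from -0.66 to 0.11, Clec10a from -0.11 to 0.56 and Mrc1 from -0.77 to 0.000931. With R300 in WT cells, Clec4e ranged from -0.38 to 0.0576, Clec4n from -0.14 to 0.50 and Mrc1 from -0.11 to 0.18. For KO against WT in blank, Clec7a ranged from -0.19 to 0.0672, Clec4d from -0.16 to 0.0845, Clec4e from -0.46 to 0.34, Clec4n from -0.47 to 0.52, Clec10a from -0.21 to 0.45 and Mrc1 from -0.29 to 0.32. For KO against WT with R300, Clec4a2 ranged from -0.0208 to 0.35 and Clec10a from -0.17 to 0.13. Averaged over treatments, Clec7a ranged from -0.0300 to 0.11, Clec4d from -0.00758 to 0.18, Clec4e from -0.29 to 0.11, Clec10a from -0.10 to 0.23 and Mrc1 from -0.33 to 0.0236. The difference of responses ranged from -0.47 to 0.34 for Clec4e, from -0.20 to 0.18 for Clec4a2, from -0.44 to 0.21 for Clec10a, from -0.73 to 0.18 for Clec12a and from -0.75 to 0.0156 for Mrc1.

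With 3 libraries a group, the 95% intervals spanned 0.42 log2 units on either side for Clec7a and 1.38 for Clec4n within a genotype.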
